A study of Mus musculus with 5 samples.

Results

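The genes that handle ATP and adenosine outside the cell, 7 in number here, were followed through 5 cultures of mouse CD4 T cells. The members were Nt5e, Entpd1, Adora2a, Ada, Dpp4, P2rx4 and P2rx7, named by symbol, and their array probes were found through the RefSeq transcript accession that the scanner files give for each probe. All 7 of 7 were found among the 21366 genes measured, with 9 probes in all: 3 for P2rx7 and 1 for each of the others. No measured value was used to find the probes, but the brightest of the 3 P2rx7 probes was taken to stand for that gene.

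The cells were splenic naive CD4 T cells of C57BL/6 mice, and each culture was hybridised to 1 array, so there were no replicates, no test could be made, and the number of arrays limits the precision. Th1 cells had grown for 4 days with anti-CD3/CD28, IL-2, IL-12 and anti-IL-4. iTreg cells had grown for 4 days from the naive state with anti-CD3/CD28, IL-2, TGF-b and antibodies to IFNg and IL-4. Th1+TGFb cells were Th1 cells moved for 4 further days into that iTreg medium (8 days in all). Rested cells were Th1 cells kept for 4 further days in IL-2 with antibodies to IFN-g and IL-4 and with no anti-CD3/CD28 named in the labels (8 days in all). Th1reg cells were rested cells moved for 4 days into the iTreg medium (12 days in all). All 5 cultures thus shared IL-2 and a block of IL-4. The labels name no sorting step after culture and do not say how many mice the cells came from. All 5 arrays share 1 slide, per the file headers.

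Dying and activated cells release ATP, which acts on immune cells as a danger signal through channels and receptors of the P2 family. A pair of ectoenzymes acting in series remove it: CD39, encoded by Entpd1, strips ATP and ADP to AMP, and CD73, encoded by Nt5e, turns AMP into adenosine. Adenosine then dampens T cells through a cell-surface receptor encoded by Adora2a, which raises cyclic AMP, until adenosine deaminase, encoded by Ada, converts it to inosine. Mouse regulatory T cells are known for carrying CD39 and CD73 together. Dpp4 encodes CD26, a cell-surface peptidase that in humans also anchors adenosine deaminase. P2rx4 and P2rx7 encode ATP-gated ion channels, and opening of P2X7 on mouse T cells can lead to shedding of surface proteins and death.

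Promoter sequence is shown for the member with the widest spread between cultures, Nt5e, and for P2rx7 and P2rx4, which were both highest in Th1+TGFb and lowest in iTreg and lie close together on chromosome 5 with no protein-coding gene entry between them. RefSeq promoter entries (build GRCm38.p6) were held for 6 of the 7 members, Adora2a being the exception. The 250 bases before each start site are given 5′ to 3′ along the gene's strand. Capitals mark matches, on either strand, to any of 7 motifs: CRE (TGACGTCA), short CRE (TGACG, which CRE contains), AP-1 (TGANTCA), SMAD (CAGAC), STAT (TTCNNNGAA), T-box (GGTGTGA) and GC box (GGGCGG).
Nt5e, chr9:88327359-88327608, plus strand: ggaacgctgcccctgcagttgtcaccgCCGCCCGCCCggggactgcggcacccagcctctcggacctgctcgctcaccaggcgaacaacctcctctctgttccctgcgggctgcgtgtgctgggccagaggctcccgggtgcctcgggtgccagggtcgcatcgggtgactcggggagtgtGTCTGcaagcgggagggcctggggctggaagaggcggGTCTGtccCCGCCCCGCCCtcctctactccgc
P2rx7, first start site, chr5:122643677-122643926, plus strand: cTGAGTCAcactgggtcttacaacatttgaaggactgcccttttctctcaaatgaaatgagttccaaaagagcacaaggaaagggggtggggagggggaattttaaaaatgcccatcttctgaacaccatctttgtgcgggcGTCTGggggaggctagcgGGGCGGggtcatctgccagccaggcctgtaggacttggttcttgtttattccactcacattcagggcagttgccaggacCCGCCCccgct
P2rx4, chr5:122707294-122707543, plus strand: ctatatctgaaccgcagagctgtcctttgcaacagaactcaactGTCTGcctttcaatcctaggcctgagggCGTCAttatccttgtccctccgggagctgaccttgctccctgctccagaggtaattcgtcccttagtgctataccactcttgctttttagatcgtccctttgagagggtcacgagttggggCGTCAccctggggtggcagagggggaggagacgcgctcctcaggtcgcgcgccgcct

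The Nt5e window held 4 GC box matches, in overlapping pairs, and 2 SMAD matches, and 72.0% of its bases were G or C, against a median of 52.4% over all 32851 promoter windows of the same length. Both P2X windows held 1 SMAD match. The P2rx7 window had 2 GC boxes and 1 AP-1 match besides, and that of P2rx4 had 2 short CRE matches. A second P2rx7 start site (window chr5:122650133-122650382, plus strand) had other matches, 2 SMAD and 1 T-box, and no GC box or AP-1 match. Of all windows, 32.7% held a GC box, 42.2% the SMAD letters, 17.8% the short CRE, 6.75% the AP-1 letters, 7.02% the STAT letters, 3.33% the T-box letters and 1.55% the full CRE. These are matches of letters only and do not show that a factor binds there.

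Every member value is a processed signal divided by the 75th percentile of signal on its array, on the log2 scale, so 0 is the level of a probe at that percentile. Levels are compared between cultures for the same probe and not between genes. Between 45.7% and 48.7% of spots were well above background on an array, the 75th percentile of signal ran from 144 (rested) to 307 (Th1reg), and no spot was saturated. As checks of the labels, Foxp3, which defines regulatory T cells, passed background in Th1reg (4.12) and iTreg (5.26) and in no other culture. Tbx21, encoding the Th1 factor T-bet, stood highest in Th1 (6.42) and lowest in iTreg (0.58), and so did Ifng, the Th1 cytokine (10.23 and 1.27). All 11 T cell markers, Cd4 and Cd3e among them, were well above background on all 5 arrays. Their summed scaled signal ran from 2201 (Th1) to 1658 (Th1reg) on 4 arrays and was 1039 in iTreg, where Entpd1, P2rx4 and P2rx7 were also lowest, and its part in those levels was not tested. Each member's probe had 1 spot, so its technical error was taken from other probes spotted at least 3 times: their median SD was 0.04 to 0.05 log2 units at signals over 1000, 0.07 to 0.08 from 100 to 1000, and 0.17 to 0.20 under 100. This error holds nothing of the variation between cultures.

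Nt5e, the enzyme that makes adenosine, varied most among the 6 members well above background on all arrays. Its signal was 109.7 in Th1, 313 in rested, 1900.3 in Th1+TGFb, 4379 in Th1reg and 7098 in iTreg, which scaled to -1.13, 1.12, 3.26, 3.84 and 4.71 log2 units. The 3 cultures that ended in the iTreg medium were thus the 3 highest, and Th1 the lowest. Every gap between neighbours in this order, the smallest being 0.58 between Th1reg and Th1+TGFb, was over 2 SD of repeat spots. The full range was 5.84 log2 units (57.2-fold), and only 0.765% of the 10725 genes well above background on all 5 arrays had a range as wide. For those genes the median range was 1.29. In bulk RNA, a smaller share of cells carrying a transcript and less of it per cell cannot be told apart.

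**Figure D1:**
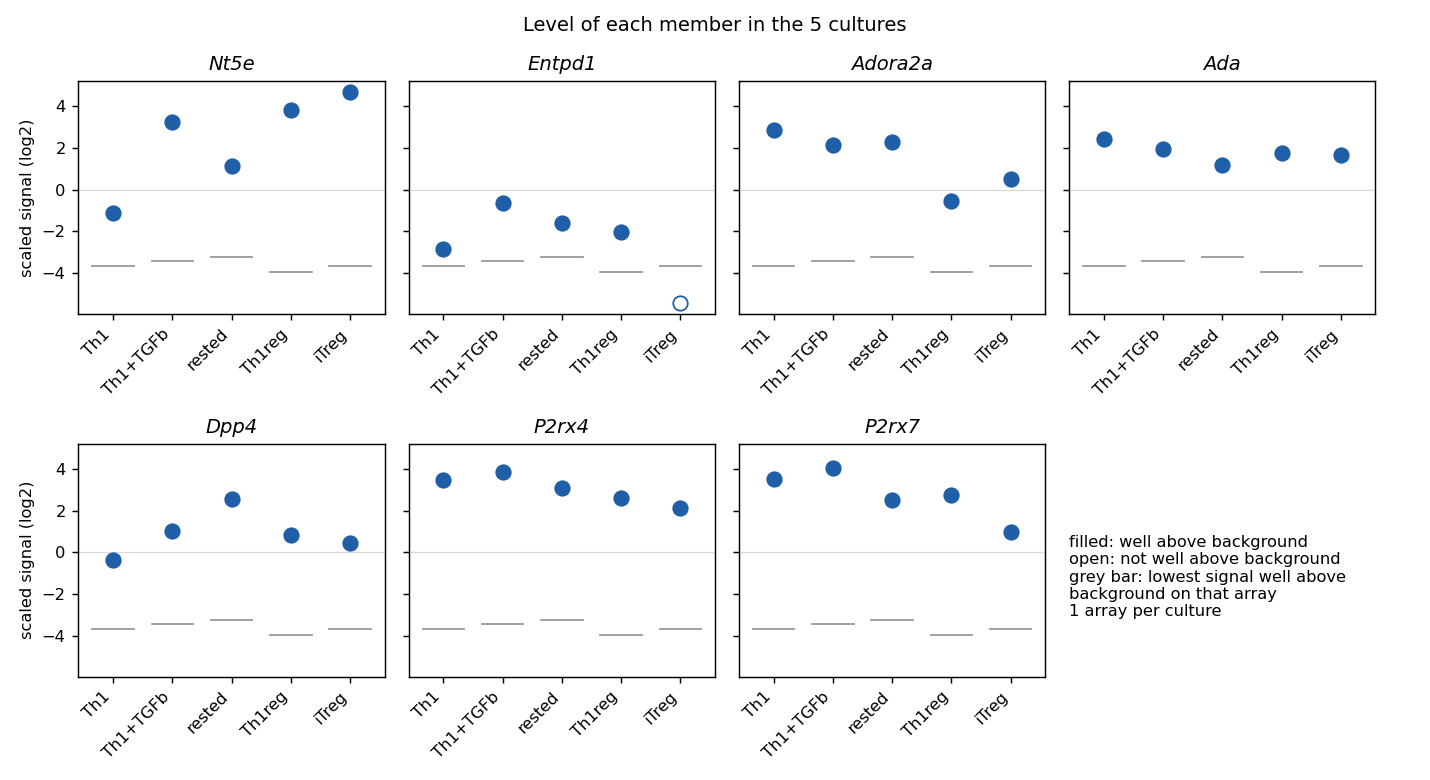
Scaled signal (log2, vertical axis) of each of the 7 members on the 5 arrays (horizontal axis), with filled points well above background, an open point not, and grey bars at the lowest signal well above background on that array. Nt5e runs from -1.13 in Th1 to 4.71 in iTreg, and Entpd1 in iTreg is the only open point.

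Entpd1, the enzyme one step before, did not follow Nt5e in its order of cultures, though both were lower in Th1 than in rested, Th1+TGFb and Th1reg. Its signal was low throughout: 33.1 in Th1, 48.0 in rested, 74.2 in Th1reg and 127 in Th1+TGFb, and 6.19 in iTreg, where it was not well above background. On the scaled axis these were -2.86, -1.59, -2.05, -0.64 and -5.45. The lowest signal well above background on the iTreg array was 21.3, or -3.67 when scaled, so Entpd1 was measured there only as a bound. The culture with the highest Nt5e was therefore the only one of the 5 in which Entpd1 was not well above background. Th1+TGFb had the highest Entpd1, 0.95 log2 units above rested. Rested and Th1reg differed by 0.46, which was under 2 SD of repeat spots (SD 0.28), and spike-in scaling turned its sign (Th1reg higher by 1.01). The Entpd1 probe is assigned to transcript NM_001304721, and no other named probe was matched to an Entpd1 transcript.

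Adora2a, encoding the adenosine receptor, was highest in Th1 and lowest in Th1reg. Its scaled signal was 2.85 in Th1, 2.31 in rested, 2.16 in Th1+TGFb, 0.49 in iTreg and -0.53 in Th1reg. Th1reg and iTreg, the 2 cultures with Foxp3 well above background, were the lowest, and Th1+TGFb, grown in the same last medium, stayed beside rested. The gap between rested and Th1+TGFb, 0.16, was under 2 SD of repeat spots, and the next gap down, to iTreg, was 1.66. The highest and the lowest culture were the same under each other scaling. With spike-ins, however, Th1+TGFb was 0.66 above rested, and rested was 0.36 above iTreg. The range of 3.38 (10.4-fold) was matched or exceeded by 6.09% of genes.

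Ada, which removes adenosine, varied least of those 6, except with spike-ins, where its range was 2.39 and that of P2rx4 1.56. Its scaled signal was highest in Th1 (2.43), then 1.95 in Th1+TGFb, 1.78 in Th1reg, 1.69 in iTreg and 1.21 in rested, a range of 1.22 that 53.2% of genes matched or exceeded. Th1+TGFb, Th1reg and iTreg followed each other with gaps of 0.17 and 0.10, both under 2 SD of repeat spots. Spike-ins turned the sign of 2 of these differences, giving 0.49 for Th1reg against Th1+TGFb and -0.39 for Th1+TGFb against iTreg. With the 75th percentile of detected probes Th1reg against iTreg turned to -0.27. Ada was 2-fold apart in 1 of the 8 comparisons made, in 2 with spike-ins and in none with either scaling to detected probes.

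Dpp4 had its peak in the rested culture, at 2.55, and its lowest level in Th1, at -0.38. Th1+TGFb (1.03), Th1reg (0.83) and iTreg (0.43) lay between. The difference of 0.20 between Th1+TGFb and Th1reg was under 2 SD of repeat spots, and the other gaps were larger. Spike-in scaling turned the sign of that difference (Th1reg higher by 0.45) and that between Th1+TGFb and iTreg (-0.05). It left rested highest and Th1 lowest, with a range of 1.76 (3.38-fold). The range of 2.92 (7.59-fold) under the scaling to all probes was reached by 9.69% of genes. The rested array also had the highest summed scaled signal of the 10 myeloid markers (1732, against 396 to 1128 on the others), nearly all of it from Siglech (698), Csf3r (574) and Itgam (459), and of the 7 B cell markers (5.70, against 1.12 to 3.11). Cd68, also a myeloid marker, was lowest there (-1.09). No array had Cd79a, Pax5, Blk, Lyz1, Lyz2, S100a8 or S100a9 well above background, and the counts of markers that were differed little: 4 of 7 B cell markers in rested and iTreg and 3 elsewhere, and 6 of 10 myeloid markers in rested and 5 elsewhere. The part of such cells in the Dpp4 level was not tested.

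The channel genes P2rx7 and P2rx4 shared their highest and their lowest culture. P2rx7 had scaled signals of 4.05 in Th1+TGFb, 3.52 in Th1, 2.77 in Th1reg, 2.49 in rested and 0.97 in iTreg, a range of 3.08 (8.46-fold) that 8.28% of genes reached. P2rx4 reached 3.84 in Th1+TGFb, 3.50 in Th1, 3.10 in rested, 2.64 in Th1reg and 2.16 in iTreg, a narrower range of 1.69 (3.22-fold) that 32.7% of genes reached. No gap between neighbours was under 2 SD of repeat spots. In the order of cultures, the places of rested and Th1reg were exchanged between them. With spike-in scaling P2rx4 was lowest in rested in place of iTreg and differed by -0.003 between Th1+TGFb and Th1, and with the 75th percentile of detected probes P2rx7 was lower in Th1reg than in rested (-0.24).

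The 3 P2rx7 probes are assigned to different transcripts of the gene and were alike in direction with some spread. The probe that stands for the gene (NM_011027) had a difference of -2.55 between iTreg and Th1, and the others gave -2.09 (NM_001038845) and -1.95 (NM_001038887). Between rested and Th1 they gave -1.02, -1.67 and -1.42. All 3 were lowest in iTreg and highest in Th1+TGFb, though the NM_001038887 probe differed little between Th1+TGFb (1.52) and Th1 (1.48). For the NM_001038845 probe the gap between rested (-1.84) and iTreg (-2.26) was under 2 SD of repeat spots. Spike-ins took the gap between rested and iTreg of the standing probe from 1.53 to 0.06. That shift exceeds the gap of each other probe, which would then be lowest in rested. For Th1+TGFb against iTreg the 3 gave 3.08, 2.33 and 1.99.

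**Figure D2:**
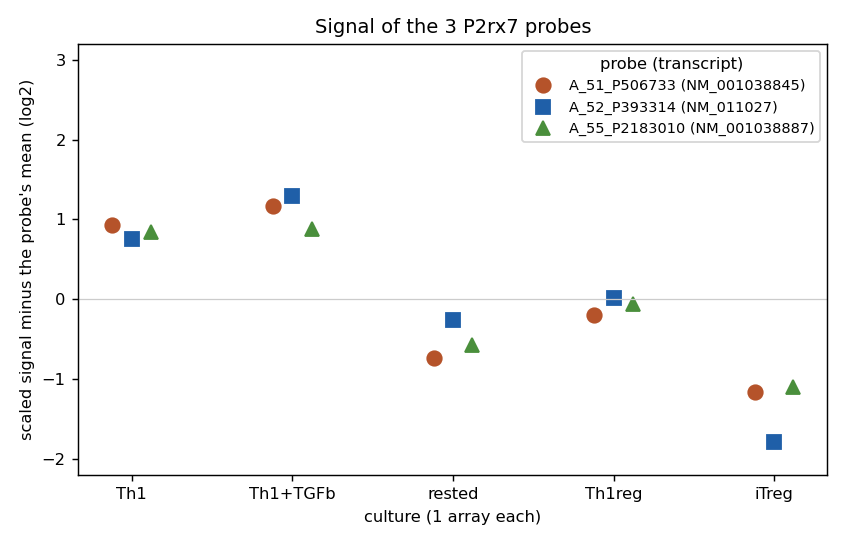
Scaled signal of each of the 3 P2rx7 probes minus that probe's mean over the 5 arrays (log2, vertical axis) by culture (horizontal axis), with a symbol for each probe and its transcript, shifted sideways for clarity. All 3 are lowest in iTreg, at -1.79, -1.16 and -1.11, and above their mean in Th1 and Th1+TGFb.

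Differences between cultures are given as log2 of the first named minus the second, and a gene was called when they were at least 2-fold apart. Where 1 of 2 signals was not well above background, the difference is a bound. Of 56 member differences (7 genes in 8 comparisons), 30 were at least 2-fold: 6 for Nt5e, 6 for Adora2a, 5 for Entpd1, 5 for P2rx7, 4 for Dpp4, 3 for P2rx4 and 1 for Ada. The share of all genes called ran from 14.8% (Th1reg against Th1) to 47.6% (Th1reg against rested) and is given with each comparison. The direction of each of the 30 held under 8 other processing settings. The comparisons share arrays, so their values are set side by side and are not independent.

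**Figure D3:**
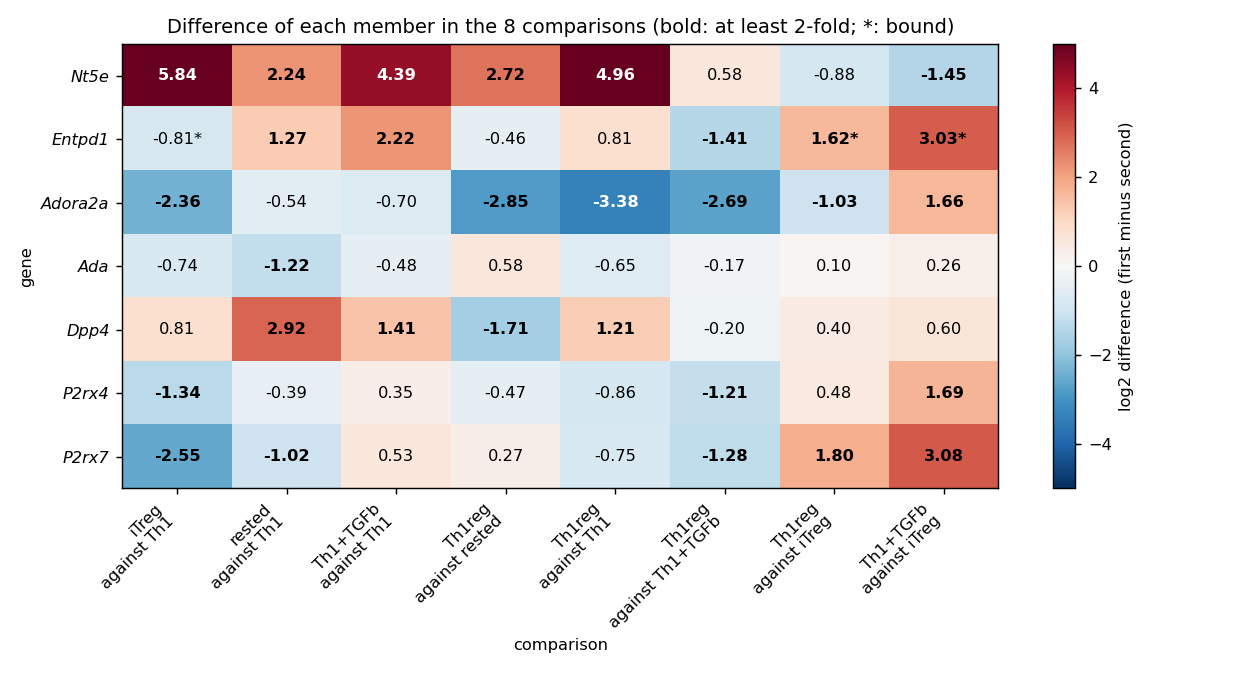
Log2 difference of each member (rows) in the 8 comparisons (columns), coloured from blue (lower in the first named culture) to red (higher), with bold values at least 2-fold and bounds starred. Nt5e has 5.84 for iTreg against Th1, and in Th1reg against Th1+TGFb no value reaches 1 while 4 lie under -1.

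The first comparison set naive cells driven to iTreg against those driven to Th1. Nt5e was 57.2-fold higher in iTreg (5.84, SD of repeat spots 0.09), while P2rx7 was 5.85-fold lower, Adora2a 5.12-fold lower and P2rx4 2.53-fold lower. Entpd1 was at least 1.76-fold lower. Dpp4 differed by 0.81 and Ada by -0.74. So 4 of 7 members were 2-fold apart, 1 higher and 3 lower, where 28.5% of the 13151 genes measured were called (10.8% higher and 17.7% lower). Their median difference was -0.81 and that of all genes -0.23. With the 75th percentile of detected probes the split was 2 higher to 2 lower, and with spike-ins 2 to 3: Dpp4 was added as higher in both, and P2rx4 (-0.96) left the count in the former.

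Rest was examined by setting rested cells against Th1. Dpp4 was 7.59-fold higher (2.92), Nt5e 4.73-fold higher (2.24) and Entpd1 2.40-fold higher (1.27, SD of repeat spots 0.28). Ada was 2.34-fold and P2rx7 2.03-fold lower, while Adora2a (-0.54) and P2rx4 (-0.39) were less than 2-fold apart. The count of 5 of 7 stood against 44.1% of all 13229 genes (17.6% higher, 26.6% lower), with median differences of -0.39 (members) and -0.28 (all genes). This comparison depended on the scaling: spike-ins lowered all its differences by 1.17 log2 units, which took Entpd1 to 0.10 and the split from 3 higher and 2 lower to 2 and 4. The 75th percentile of detected probes raised them by 0.53 and gave 3 and 0, and normexp background correction gave 2 and 2.

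The direct step from Th1 culture to iTreg medium was read from Th1+TGFb against Th1. Nt5e was 20.9-fold higher (4.39), Entpd1 4.65-fold (2.22) and Dpp4 2.66-fold (1.41). P2rx7 (0.53), P2rx4 (0.35), Ada (-0.48) and Adora2a (-0.70) were less than 2-fold apart. Transcripts of both enzymes that lead from ATP to adenosine were thus higher together. This was also so in rested against Th1 (Nt5e 2.24, Entpd1 1.27), though Entpd1 came to 0.10 there with spike-ins. For Th1+TGFb against Th1, 3 of 7 members were called and none lower, where 19.1% of 13057 genes were called (11.4% higher, 7.74% lower). The members' median was 0.53 and that of all genes -0.20. With spike-ins, which moved the genes by -0.35, the split was 3 to 1, Adora2a being added as lower, and P2rx4 came to -0.003. With normexp the Entpd1 difference was 1.08.

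The same medium after rest was followed in Th1reg against rested. Th1reg had anti-CD3/CD28 and rested had none named, so this pair differed in stimulation as well as in medium. Nt5e was 6.59-fold higher (2.72), Adora2a 7.19-fold lower (-2.85) and Dpp4 3.28-fold lower (-1.71). Ada (0.58), P2rx7 (0.27), Entpd1 (-0.46) and P2rx4 (-0.47) were less than 2-fold apart. The count of 3 of 7 stood beside 47.6% of 13332 genes (27.6% higher, 20.0% lower), with median differences of -0.46 (members) and 0.28 (all genes). Spike-ins raised all differences by 1.47 and gave 4 higher and 1 lower in place of 1 and 2, taking Dpp4 to -0.24. The 75th percentile of detected probes lowered them by 0.51 and kept the same split.

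**Figure D4:**
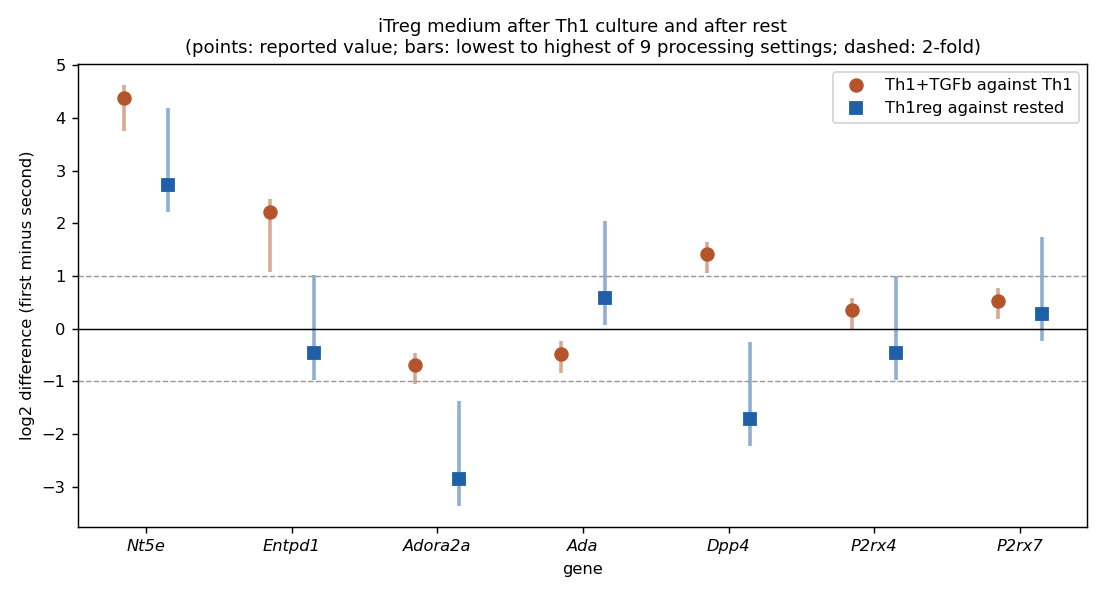
Log2 difference (vertical axis) of each member (horizontal axis) for Th1+TGFb against Th1 (circles) and Th1reg against rested (squares), with bars from the lowest to the highest of 9 processing settings and dashed lines at 2-fold. Nt5e is above the upper line in both pairs, and Dpp4 lies at 1.41 in the former and -1.71 in the latter.

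Over the whole path from Th1 through rest to Th1reg, Nt5e was 31.2-fold higher at the end (4.96), Dpp4 2.32-fold higher (1.21) and Adora2a 10.4-fold lower (-3.38). Entpd1 differed by 0.81, Ada by -0.65, P2rx7 by -0.75 and P2rx4 by -0.86. For Nt5e, 2.24 lay in the step to rest and 2.72 in the step after it, while for Adora2a -0.54 lay in the former and -2.85 in the latter. This division depended on the scaling. With spike-ins the 2 steps had 1.08 and 4.19 for Nt5e, and -1.705 and -1.379 for Adora2a, whose larger part then lay in the step to rest. Dpp4 stood higher after rest and lower again after the iTreg medium. Of 7 members 3 were called, beside 14.8% of 12867 genes (6.23% higher, 8.55% lower), with median differences of -0.65 (members) and 0.01 (all genes). Normexp, under which Dpp4 was less than 2-fold apart (0.90), gave 1 higher and 1 lower in place of 2 and 1. Spike-ins gave 3 and 1, adding Entpd1 (1.11).

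Cultures that had and had not rested before the iTreg medium were compared as Th1reg against Th1+TGFb, which also differ by 4 days in total culture. Every member called was lower in Th1reg: Adora2a 6.45-fold (-2.69), Entpd1 2.66-fold (-1.41), P2rx7 2.43-fold (-1.28) and P2rx4 2.31-fold (-1.21). Nt5e (0.58), Ada (-0.17) and Dpp4 (-0.20) were less than 2-fold apart. The 4 of 7 stood beside 27.4% of 13213 genes called either way (12.2% higher, 15.2% lower), with median differences of -1.21 (members) and 0.19 (all genes). With spike-ins, which moved the genes by 0.65, the split was 1 higher (Nt5e, 1.23) and 1 lower (Adora2a, -2.04).

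The 2 cultures with Foxp3 were compared as Th1reg against iTreg, which also differ in total culture (12 and 4 days). Entpd1 was at least 3.07-fold higher in Th1reg (1.62) and P2rx7 3.49-fold higher (1.80), whereas Adora2a was 2.04-fold lower (-1.03). The other P2rx7 probes gave smaller differences, 0.96 (less than 2-fold) and 1.05. Nt5e was 0.88 lower on the log2 scale, and P2rx4 (0.48), Dpp4 (0.40) and Ada (0.10) lay close together. So 3 of 7 were called beside 27.8% of 13184 genes (15.7% higher, 12.1% lower), with median differences of 0.40 (members) and 0.28 (all genes). The 75th percentile of detected probes, which moved the genes by -0.36, gave 2 higher and 2 lower, adding Nt5e (-1.24). Normexp left P2rx7 alone, with Entpd1 at 0.84 and Adora2a at -0.82.

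Th1+TGFb and iTreg had the same last medium and differed in the Th1 culture that came before, and so also in total culture (8 and 4 days). P2rx7 was 8.46-fold higher in Th1+TGFb (3.08), Entpd1 at least 8.16-fold (3.03), P2rx4 3.22-fold (1.69) and Adora2a 3.16-fold (1.66). Nt5e was 2.74-fold lower (-1.45), and Dpp4 (0.60) and Ada (0.26) were less than 2-fold apart. With 5 of 7 called, beside 26.9% of 13271 genes (16.3% higher, 10.6% lower), the members' median was 1.66 and that of all genes 0.09. The split of 4 to 1 was the same under each of the 8 alternative settings.

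Other genes of extracellular nucleotide and adenosine handling were taken from a list of 60, of which 58 had a named probe (those listed as Art2a-ps and Ada2 did not). On all 5 arrays 25 of the 58 were well above background and on none 18. Of all 21366 genes measured, 10725 were well above background on all 5. Between 36 and 40 of the 58 could be compared in a given comparison. Those called were 18 of 39 in iTreg against Th1 (9 higher, 9 lower), 16 of 36 in rested against Th1 (6 and 10), 10 of 36 in Th1+TGFb against Th1 (7 and 3), 20 of 38 in Th1reg against rested (12 and 8), 11 of 37 in Th1reg against Th1 (7 and 4), 11 of 37 in Th1reg against Th1+TGFb (5 and 6), 17 of 40 in Th1reg against iTreg (10 and 7) and 16 of 40 in Th1+TGFb against iTreg (9 and 7). In percent these were 46.2, 44.4, 27.8, 52.6, 29.7, 29.7, 42.5 and 40.0, against the shares of all genes given above. With spike-ins the splits of rested against Th1 and Th1reg against rested were 4 to 26 and 27 to 3, and those of iTreg against Th1, Th1+TGFb against Th1, Th1reg against Th1+TGFb and Th1+TGFb against iTreg were 10 to 6, 6 to 8, 16 to 5 and 7 to 13. With the 75th percentile of detected probes they were 10 to 6 for iTreg against Th1, 9 to 7 for rested against Th1, 9 to 2 for Th1+TGFb against Th1, 7 to 11 for Th1reg against rested, 2 to 7 for Th1reg against Th1+TGFb and 6 to 8 for Th1reg against iTreg. With the median of detected probes it was 9 to 9 for rested against Th1.

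Among the other adenosine receptors, Adora2b had its highest scaled signal in Th1+TGFb (2.57), with 0.94 in Th1, 0.89 in Th1reg and -2.11 in iTreg, and was not well above background in rested. It was at least 18.0-fold lower in rested than in Th1, and in Th1reg it exceeded rested by at least 17.4-fold. Adora3 was highest in Th1+TGFb (2.39), with 1.72 in Th1, -1.93 in rested and -0.68 in Th1reg and was not well above background in iTreg, at least 41.9-fold below Th1. Adora1 was below that mark throughout. The 3 adenosine receptor genes that were measured, Adora2a, Adora2b and Adora3, were thus each highest in Th1 or Th1+TGFb.

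Enzymes and transporters acting beside the members also differed. Cd38, an ectoenzyme that consumes NAD, was 13.8-fold higher in Th1+TGFb than in Th1 and 20.2-fold higher in Th1reg than in rested, and Bst1, of the same family, was 45.1-fold higher in Th1+TGFb than in iTreg. The nucleoside transporter gene Slc29a1 stood highest in iTreg (4.85) and lowest in rested (1.65) and was 2.78-fold higher in Th1reg than in Th1+TGFb. Slc17a9, which loads ATP into vesicles, was 4.58-fold higher in iTreg than in Th1. Entpd5 was 6.69-fold and Acpp 9.13-fold higher in rested than in Th1. Panx1, a channel through which cells release ATP, lay between 4.89 and 5.32 on the 5 arrays.

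Receptors for nucleotides other than the members were split between cultures. P2ry14, a receptor for UDP-sugars, was near 2 in Th1 (2.13), Th1+TGFb (2.19) and rested (1.93), at -2.70 in Th1reg, 24.8-fold below rested, and not well above background in iTreg. P2ry1 was highest in iTreg (1.26), at least 30.1-fold above Th1, and 10.4-fold lower in Th1reg. P2rx5 was at least 12.7-fold higher in Th1+TGFb than in Th1, and Th1reg exceeded rested by at least 8.58-fold. Art2b, which can gate P2X7 on mouse T cells by ADP-ribosylation, was at least 9.28-fold higher in rested than in Th1. Of the 40 list genes compared at least once, 10 were never 2-fold apart, and the matching share of all genes was not counted.

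**Figure D5:**
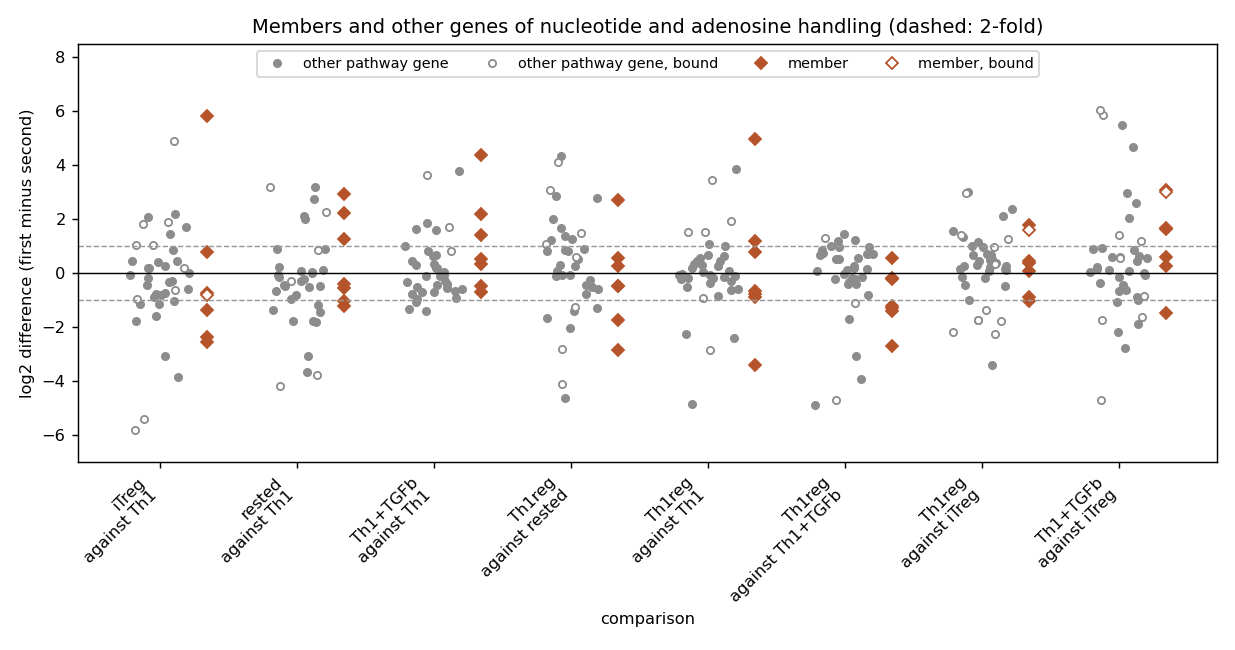
Log2 difference (vertical axis) in each comparison (horizontal axis) for the other pathway genes (grey circles, open where the value is a bound) and the 7 members (diamonds, open where a bound), with dashed lines at 2-fold. Nt5e is the uppermost diamond in iTreg against Th1, at 5.84, above every grey point as drawn, the highest of which, P2ry1 at 4.91, is a lower bound.

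Genes whose profile over the 5 arrays was most like a member's were found among 10233 named genes well above background on all 5, by the root mean square difference after each gene was centred on its own mean. The measure is not scaled to a gene's range, so the count of genes within 0.25 also depends on range. That range was 5.84 for Nt5e and 1.22 for Ada. By this measure the genes nearest to Nt5e, Adam19 and Lrig1, lay 0.88 and 0.91 log2 units away, and no gene lay within 0.25. Adora2a was nearest to Rbm47 (0.15) and Tent5c (0.41), and Dpp4 to Akap12 (0.20) and Mcoln2 (0.26), with 1 gene within 0.25 in both cases. P2rx7 was nearest to Clip2 (0.13) and Parp16 (0.18), with 9 genes within 0.25, and P2rx4 to Lhx2 (0.07) and Ppp3cc (0.09), with 54. Ada, whose nearest were Ankrd13c (0.04) and Fam241a (0.05), had 569. Entpd1 was left out because of its signal in iTreg.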

How the data were processed

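RNA of 5 cultures was measured on 1-colour (Cy3) Agilent mouse arrays. The authors deposited 5 scanner files, per the file headers and the submitters' processing notes from Agilent Feature Extraction 10.7.1.1. Their processed signal is a linear intensity, background-subtracted and detrended per the file headers. The arrays were not scaled to each other. Well-above-background and control marks were used as deposited. The series' deposited value table is that intensity divided by 1 constant an array: 99.7% to 99.8% of probes lay within 0.01 log2 units of it. Its column medians were 0.0762 (Th1), 0.103 (Th1+TGFb), 0.123 (rested), 0.0693 (Th1reg) and 0.0925 (iTreg), and the sources used here do not give how the constants were chosen. It is linear, runs in the scanner's direction and is not centred by gene.

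From these, spots marked as outliers (109 to 142 an array) were dropped, spots of a probe averaged and log2 of the 75th percentile of the 59305 non-control spots subtracted. Of 55681 probes, 28331 were named through unversioned RefSeq accessions (assembly GRCm38.p6; the array design names mm9). The brightest probe stood for a gene. A dim value was raised to the array's lowest signal well above background. A gene was called at 2-fold. The difference rule was tested on simulated data. Members and lists were chosen with earlier results of these data known. Named were the members, the 3 largest differences each way among called pathway genes (in part), the 2 most alike genes per member, and Foxp3, Tbx21 and Ifng as label checks. Adora1 and Panx1 were added after their values were seen. Alternatives were other scalings (detected probes, 7 spike-in probes), normexp (limma 3.58.1, offset 50) on median signals, as the files hold no mean signal, the deposited table, all probes averaged, no floor, and outliers kept. Markers (1 listed gene is not reported here) of T, B, myeloid, CD8 T and NK, erythroid and platelet cells were summed: CD8 T and NK markers came to 2.06 (iTreg) to 12.8 (Th1+TGFb), erythroid markers to 0.297 (rested) to 0.838 (Th1reg), and no platelet marker was well above background. Values were computed with numpy and pandas.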

Additional observations from a re-analysis of the deposited data

Results flagged for a closer look

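The iTreg medium was entered from the Th1 state and from the rested state, and 3 members had opposite signs in the 2 pairs of arrays by more than 2 SD of repeat spots. Of the 10894 genes well above background on those 4 arrays 53.9% met the same rule, against 3 of 7 members (42.9%). Each pair is 1 array against 1, so the difference between the pairs was not tested. The pairs are also not the same contrast. Both Th1 and Th1+TGFb had anti-CD3/CD28, while Th1reg had it and rested had none named. In Th1reg against rested, medium and stimulation therefore cannot be told apart. Dpp4 had a log2 difference of 1.41 in Th1+TGFb against Th1 and -1.71 in Th1reg against rested. Ada had -0.48 and 0.58, and P2rx4 had 0.35 and -0.47, all under 2-fold. The matching Dpp4, Ada and P2rx4 values for Th1reg against rested were -0.24, 2.05 and 1.0 with spike-ins, a scaling that turned the sign for P2rx4.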

How the results depend on the processing

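No paired analysis was possible because each group has 1 array. For the same reason no array could be left out. Of the 30 member differences of at least 2-fold, each kept its direction under each of the 8 alternatives. They stayed at least 2-fold in 27 cases when scaled to detected probes by their 75th percentile, 28 by their median, 25 with spike-ins, 25 with normexp, 29 with the deposited table and all 30 with the other alternatives. For rested against Th1 the count of members 2-fold apart was 5 and became 3 with either scaling to detected probes. Spike-ins gave 5 in place of 3 for Th1reg against rested and 2 in place of 4 for Th1reg against Th1+TGFb, and normexp 1 in place of 3 for Th1reg against iTreg. Counts of other pathway genes became 30 in place of 16 (rested against Th1) and 21 in place of 11 (Th1reg against Th1+TGFb) with spike-ins, and 10 in place of 18 (iTreg against Th1) and 7 in place of 17 (Th1reg against iTreg) with normexp, and 20 became 30 with spike-ins for Th1reg against rested. Signal limits Entpd1 most: its signals of 6.19 to 127 lie nearest to the lowest signals well above background, 15.4 to 21.3.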
